A study of Mus musculus with 20 samples.

Results

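The genes described here encode the chains of collagen, the proteins that make up most of the extracellular matrix of muscle and tendon. They were chosen by symbol alone, as the protein-coding genes named Col, a number, a and a number in both deposited count tables. This gave 44 of the 54532 genes in the tables, of which 11 encode fibrillar chains, 6 chains of the basement membrane type IV collagens, 9 chains of the FACITs (fibril-associated collagens with interrupted triple helices) and 18 chains of other types. RNA-seq libraries were made from the plantaris, a calf muscle, of adult male C57BL/6J mice aged 5 months, 10 days after either sham surgery or mechanical overload (MOV), for which surgeons took out part of the gastrocnemius and soleus of both legs. All mice, sham included, had received lentivirus in both legs, with 50 µL of control virus in the left plantaris and the same volume of the miR-1 mimic virus in the right one. Both viruses drove their insert from a mouse CMV promoter with TurboGFP as a reporter, and this promoter is active in many cell types. Each surgery and virus gave 5 libraries, named sham control and sham mimic, or MOV control and MOV mimic, and the numbers 1 to 5 within a group are the replicate numbers of the labels. There were 10 mice, 5 for each surgery, which is as many as the libraries of a group. The labels do not tie a library to a mouse or say that equal numbers mark the legs of 1 mouse, and p-values measure the spread between these libraries.

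Collagen chains wind into triple helices of equal or different chains. Types I and III form the fibrils that carry tension, type V is built into them and limits their width, FACITs sit on their surface, and type IV forms the sheet-like network of the basement membrane around each muscle fibre and vessel. Type VI forms beaded filaments just outside that sheet, and loss of its chains causes muscle disease. In muscle most collagen mRNA is made by fibroblasts and not by the fibres. When a muscle is overloaded, its matrix is known to be remodelled along with the growth of the fibres.

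The counts of a library summed to between 12036360 and 23056525. CPM, the unit of all levels here, is a count scaled to a common library size after TMM normalization, which corrects for differences in library composition. As a check of the tissue, the mean log2 CPM of 10 muscle fibre markers lay between 12.5 and 13.9 in all 20 libraries, whereas the mean of 6 epidermis markers stayed between -2.50 and -0.74. Libraries numbered 1 of both sham groups were low for collagens, and so were, less far, libraries 4 and 5 of MOV control. Over 10 fibroblast markers the mean log2 CPM was 5.67, 6.63, 6.77, 6.92 and 6.99 in sham control 1 to 5, 5.81, 6.29, 6.79, 6.89 and 6.63 in sham mimic and, for MOV control, 6.12, 6.71, 6.76, 5.72 and 5.78. The MOV mimic libraries had 6.11, 6.71, 6.78, 5.58 and 6.14. The 4 libraries low for collagens were also low for 9 macrophage markers, with 4.17 in sham control 1, 4.27 in sham mimic 1, and 4.20 and 4.41 in MOV control 4 and 5, against 5.04 to 6.21 in the other libraries of these groups. Tenocytes, the cells of tendon, also make collagen, and the mean of 7 tenocyte markers was 4.25, 4.59, 4.54 and 4.03 in the same 4 libraries, against 4.79 to 6.20 in the others of these groups. The part of these cells in the collagen values was not tested. In whole muscle, fewer cells that make collagen and less collagen mRNA per cell cannot be told apart.

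Short matches to 2 microRNA families are shown first, since the mimic raised the question of miR-1 sites in these genes, and since miR-29 is the microRNA family best known for binding collagen mRNAs. The seed, bases 2 to 8, is in capitals in the mature sequences from RefSeq (GRCm38.p6). miR-206 has the seed of miR-1, and miR-1 is known to match the same sites.
miR-206-3p: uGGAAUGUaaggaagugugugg
miR-29a-3p: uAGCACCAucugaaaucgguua
miR-29b-3p: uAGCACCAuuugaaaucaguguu
The sequence that pairs with the miR-1 and miR-206 seed, ACATTCC, lay in the 3′ UTR of 5 of the 44 collagen chain genes (11.4%), against 8.03% of 20007 mouse genes with a 3′ UTR in the reference transcripts (NCBIM37, the transcript with the longest coding sequence of each gene). The 5 genes were Col4a3, Col4a6, Col6a1, Col6a3 and Col15a1. The sequence that pairs with the miR-29 seed, TGGTGCT, lay in 24 of the 44 (54.5%), against 10.6% of the 20007 genes. Both searches were on the transcript strand only. The 3′ UTRs of the collagen genes were longer, with a median of 920.5 bases against 710 over all genes, and the shares were not corrected for length. The miR-1 matches of the 4 genes that could be tested, and the miR-29 matches of 5 chains followed below, are given with the matched letters in capitals.
Col6a1, miR-1: atggctcccccACATTCCccgtaatctga
Col6a3, miR-1: tgtttatgtgaACATTCCtataaattcaa
Col15a1, miR-1: gcagtgtgaacACATTCCctgacacagag
Col4a3, miR-1, first of 3: tcgctgaaatcACATTCCagttgtaccca
Col1a1, miR-29: gaaggaatttcTGGTGCTatagaagctga
Col3a1, miR-29: aaatgtctcaaTGGTGCTataataaataa
Col5a1, miR-29, first of 4: ctatgaacattTGGTGCTgaattttttac
Col8a1, miR-29: atattctaccaTGGTGCTaatatcagagc
Col9a1, miR-29, first of 2: tttagagcaacTGGTGCTattcagtaagt
Counted from the first base of the 3′ UTR, these lay at 709 to 715 of 767 bases in Col6a1, 276 to 282 of 731 in Col6a3, 273 to 279 of 877 in Col15a1, 253 to 259 of 3175 in Col4a3, 919 to 925 of 1423 in Col1a1, 235 to 241 of 959 in Col3a1, 988 to 994 of 2498 in Col5a1, 2199 to 2205 of 2653 in Col8a1 and 150 to 156 of 823 in Col9a1. A match is a description of the sequence and does not show that the microRNA acts there.

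The levels of the chains covered a wide range. Averaged over the 20 libraries, 12 of the 44 genes were at 100 CPM or more, 24 between 1 and 100 CPM, and 8 under 1 CPM. The chains of types I and III were the most abundant, with means of 2944 CPM for Col3a1, 2185 for Col1a2 and 1992 for Col1a1. Per kilobase of exon, the means were 351 for Col3a1, 304 for Col1a1, 180 for Col1a2 and 66.8 for Col6a1. The exon length merged all annotated exons of a gene (NCBIM37), 12145 bases for Col1a2 and 6563 for Col1a1. The order of genes on this scale thus depends on the annotation, and by CPM Col1a2 lay above Col1a1. Together Col1a1, Col1a2 and Col3a1 took up 48.1% of all collagen counts in sham control 1, 55.7% in sham mimic 1 and between 64.9% and 76.3% in the other 18 libraries. The genes under 1 CPM were Col9a2, Col9a3, Col19a1, Col4a6, Col6a4, Col10a1, Col17a1 and Col25a1. Col10a1 encodes a chain of growth plate cartilage and Col17a1 a transmembrane chain of the skin.

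The 44 collagen genes as a whole held 0.122, 0.551, 1.47, 1.34 and 0.849% of all counts in sham control 1 to 5. The share was 0.167, 0.747, 1.17, 1.11 and 1.06% in sham mimic. In MOV control it was 1.72, 1.81, 1.62, 0.660 and 0.388% and in MOV mimic 0.971, 1.69, 1.22, 0.867 and 0.974%. The first library of each sham group was lowest, MOV control 4 and 5 were the lowest of the MOV libraries, and the groups overlapped. Mean shares were 0.866 ± 0.557% for sham control and 0.851 ± 0.416% for sham mimic, and those of MOV control and MOV mimic were 1.24 ± 0.665% and 1.14 ± 0.332% (SD, n = 5 each). None of the differences was larger than the spread between libraries. The exact permutation test, two-sided, gave p = 0.333 for MOV control against sham control, 0.302 for MOV mimic against sham mimic, 0.762 for MOV mimic against MOV control and 0.960 for sham mimic against sham control (0.667, 0.667, 0.960 and 0.960 after Benjamini-Hochberg adjustment over the 4).

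The libraries numbered 1 lay at the lower end of the sham groups for most genes. Of the 44 genes, 32 had their lowest value of sham control in library 1, and 28 their lowest value of sham mimic, with 25 genes lowest in both. In MOV control, 24 genes were lowest in library 5 and 5 in library 4. The gap was largest for fibrillar chains, where the median of the other 4 libraries over library 1 had a median of 7.05 over the 11 fibrillar genes in sham control and of 5.91 in sham mimic. For the 5 tested basement membrane genes these values were 1.78 and 0.948. The map of all tested chains by library shows the pale or blue columns of these libraries.

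**Figure D1:**
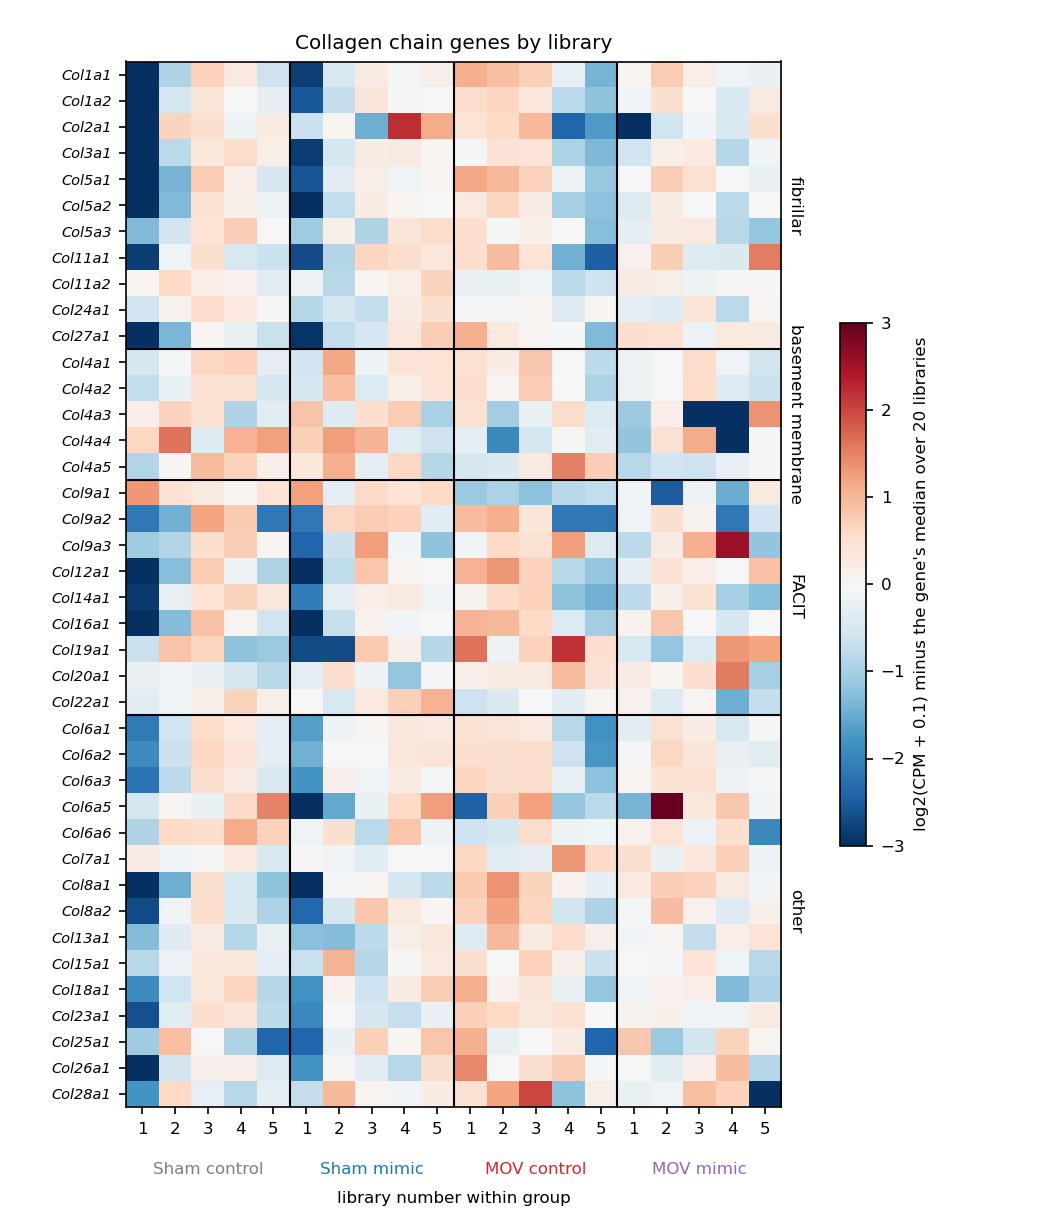
Each cell is the log2(CPM + 0.1) of 1 gene in 1 library less the median of that gene over the 20 libraries, with red above and blue below the median and the colours ending at 3 and -3. The 40 collagen chain genes that could be tested in at least 1 comparison are rows ordered by class, and the 20 libraries are columns ordered by group and number. Dark blue cells of the fibrillar, FACIT and type VI and VIII genes stand in library 1 of sham control and of sham mimic, and Col9a1 is a row that is red there and blue in MOV control.

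Whether overload changed the collagen chains was asked first in the control legs. Of the 44 genes, 38 passed the filter on low counts in MOV control against sham control, and 0 of them had an adjusted p under 0.05 with edgeR's quasi-likelihood test, in which 0.00668% of the 14974 genes tested were called. At an unadjusted p under 0.05 there were 7 collagen genes, against 18.2% of all genes tested, a share near that of the background (7 of 38). DESeq2 called 3 of the 38 (Col4a4, Col9a1 and Col20a1) and 6.1% of all genes tested, and limma voom called Col9a1 and 1.96% of all genes. The 7 were Col8a1, Col13a1, Col20a1 and Col26a1 with higher values in MOV control, and Col4a4, Col9a1 and Col11a2 with lower values. The median log2 fold change (log2FC) of the 38 was 0.41 with 28 above 0, whereas it was 0.04 over all genes tested, of which 54.2% lay above 0. Without sham control 1 this median was 0.17, and without MOV control 4 and 5 it was 0.64, with 0 collagen genes called in either. Scaling by library totals alone, without TMM, moved the median of all genes to 0.19 and that of the collagen genes to 0.54. Markers of other cells differed along with these values, with 0 called. Of the tested markers, 0 of 5 of adipocytes (median log2FC -1.22) and 0 of 7 of endothelium (-0.38) lay above 0, and 4 of 6 of slow fibres (1.00). Unadjusted p-values were under 0.05 for 2, 3 and 4 of them, and of the 4 slow fibre markers 2 were higher and 2 lower in MOV control. Above 0 lay 1 of 9 macrophage markers (median log2FC -0.34) and 2 of 10 fibroblast markers (-0.40). Unadjusted p-values were under 0.05 for 0 of the macrophage and 3 of the fibroblast markers, all 3 lower in MOV control. The mean log2 CPM was 0.66 to 2.72 in sham control and -1.42 to 1.19 in MOV control for adipocyte markers, and 5.14 to 7.20 and 5.84 to 7.43 for slow fibre markers. Their part in the collagen values was not tested.

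Of the fibrillar genes 8 of 11 had a log2FC above 0, with a median of 0.37. Col1a1 (ENSMUSG00000001506, chromosome 11, 94936224 to 94953042, all coordinates from the RefSeq annotation of GRCm38), whose product is the main chain of type I collagen, was at 145, 1032, 3073, 2341 and 1237 CPM in sham control 1 to 5. In MOV control it was at 4074, 3575, 3158, 1607 and 735 CPM. The first 3 MOV control libraries lay above all sham control libraries, but the last 2 lay among them. The difference was within the spread (log2FC 0.78, SE 0.62, adjusted p = 0.539), and it was 0.48 without sham control 1 and 1.18 without sham control 3. Its partner Col1a2 (ENSMUSG00000029661, chromosome 6, 4505618 to 4541543) was at 275, 1637, 3011, 2381 and 1926 CPM in sham control. The MOV control libraries were at 3410.1, 3669, 2991, 1332 and 1013 CPM for Col1a2, and the groups again overlapped (log2FC 0.46, SE 0.51, adjusted p = 0.672). Without the same libraries, 1 at a time, its log2FC was 0.18 and 0.71.

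Col3a1 (ENSMUSG00000026043, chromosome 1, 45311538 to 45349706) makes type III collagen, which is abundant in young and healing matrix. It was at 300.2, 1883, 4143, 4866 and 3778 CPM in sham control and 3197, 4466, 4386, 1707 and 1305 CPM in MOV control. The 2 means were almost equal, 2994 ± 1866 and 3012 ± 1471 CPM (SD, n = 5 each), and the sign of the log2FC of 0.04 (SE 0.56) turned in 4 of 10 fits that left out 1 library. Col5a1, which encodes the main chain of type V collagen, was at 38.4, 122, 545, 369.6 and 227 CPM in sham control and 723, 642, 522, 283 and 147 CPM in MOV control (log2FC 0.86, SE 0.58, adjusted p = 0.460). Its partner Col5a2 was at 37.5, 171, 587, 471 and 376 CPM and 519, 665, 497, 215 and 182 CPM in the same groups, with a log2FC of 0.37 (SE 0.57) that was 0.0794 without sham control 1 and 0.69 without sham control 3. For Col5a1 and Col5a2 sham control 1 was far below all other libraries of the comparison. For Col5a3, the other type V gene, it was at 43.3 CPM, next to MOV control 5 with 44.7 CPM (log2FC -0.02, SE 0.37). Edges of the fibrillar class were held by Col27a1, with a log2FC of 0.95 (SE 0.50, adjusted p = 0.330), and Col11a2 with -0.51 (SE 0.19, adjusted p = 0.179). Col27a1 ranged from 1.80 to 16.0 CPM in sham control and from 6.05 to 32.4 CPM in MOV control, and Col11a2 from 17.3 to 32.4 and from 12.3 to 19.6 CPM.

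**Figure D2:**
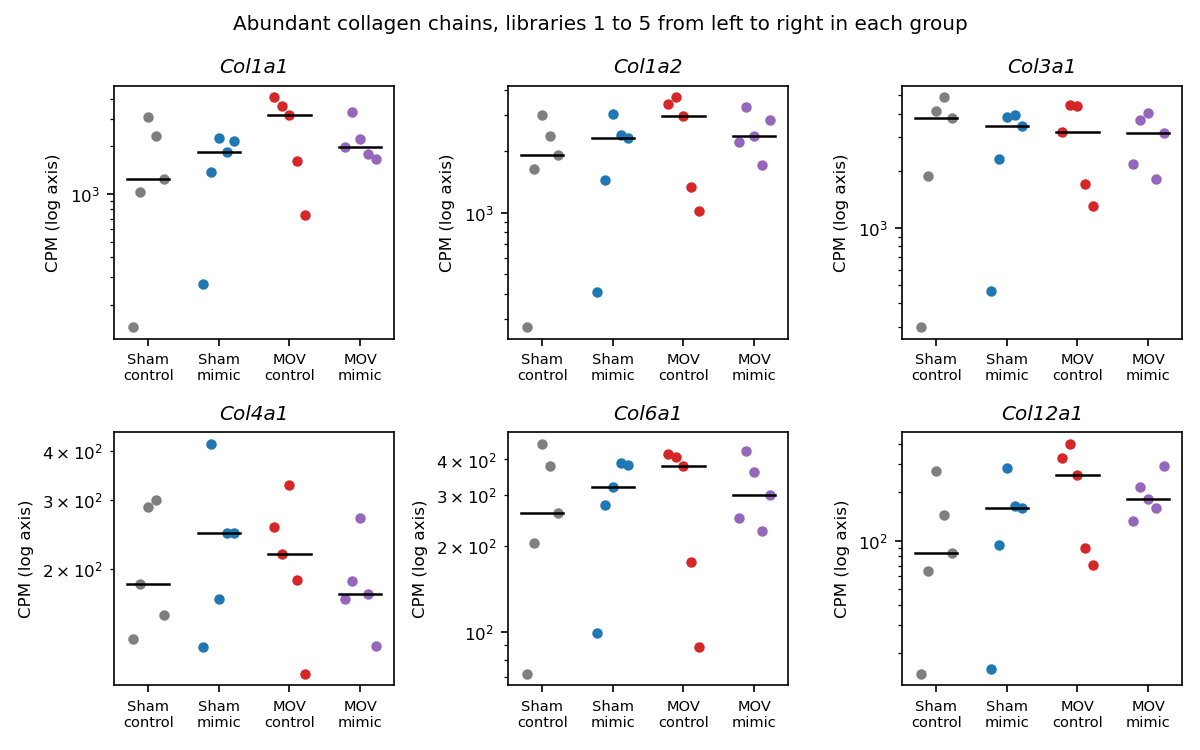
Points are the CPM of 6 abundant chains in each of the 20 libraries, on a log axis that differs between panels, with libraries 1 to 5 from left to right within a group and a bar at the median of the group. Library 1 of sham control and of sham mimic is the lowest of its group for all 6 chains, by most for Col1a1, Col1a2, Col3a1 and Col12a1 (145 and 272 CPM for Col1a1), and for Col4a1 the lowest of all libraries is MOV control 5.

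As a measure taken within each library, ratios of the counts of 2 chains were compared as well. The log2 ratio of Col3a1 over Col1a1 counts was 1.05, 0.87, 0.43, 1.06 and 1.61 in sham control and -0.35, 0.32, 0.47, 0.09 and 0.83 in MOV control. Col3a1 counts were thus above those of Col1a1 in all 5 sham control libraries and in 4 of 5 MOV control libraries, and the mean ratio was 2.08 ± 0.622 against 1.25 ± 0.370 (SD, n = 5 each). The difference on the log2 scale was -0.73 (exact permutation p = 0.0317, two-sided, which became 0.254 when adjusted over 24 ratio tests). For Col1a1 over Col1a2 the log2 ratio was -0.92, -0.67, 0.03, -0.02 and -0.64 in sham control and 0.26, -0.04, 0.08, 0.27 and -0.46 in MOV control, a difference of 0.47 (exact permutation p = 0.0714, adjusted p = 0.343). Col5a1 over Col5a2 differed by 0.45 (exact permutation p = 0.0556, adjusted p = 0.333).

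The ratio that separated the groups was that of 2 type VI chains. Col6a3 over Col6a1 was -0.53, -0.63, -0.48, -0.50 and -0.64 on the log2 scale in sham control. In MOV control it was -0.23, -0.35, -0.20, 0.16 and 0.14, so that all 5 MOV control libraries lay above all 5 sham control libraries, with MOV control 4 and 5 the highest. The linear ratio was 0.679 ± 0.0350 in sham control and 0.945 ± 0.153 in MOV control (SD, n = 5 each). This log2 difference of 0.46 gave p = 0.00794 in the exact permutation test, the smallest that 5 against 5 libraries can give, but 0.190 after adjustment over the 24 tests. In the mimic legs the log2 ratio was -0.59, -0.12, -0.62, -0.53 and -0.80 in sham mimic and -0.08, -0.46, -0.20, -0.12 and -0.46 in MOV mimic, a difference of 0.26 with overlapping groups (exact permutation p = 0.0873, adjusted p = 0.349). Sham mimic 2 was the library of that group that lay among the MOV mimic values. Col4a1 over Col4a2, of 2 chains that share a triple helix, was 0.52, 0.45, 0.47, 0.52 and 0.49 in sham control and 0.23, 0.45, 0.33, 0.29 and 0.44 in MOV control, a difference of -0.14 (exact permutation p = 0.0159, adjusted p = 0.190). These 2 genes start next to each other on opposite strands with 85 bases of shared annotation, and the strand setting of the counting is not given in the sources used here. None of the 24 ratio tests passed after adjustment.

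**Figure D3:**
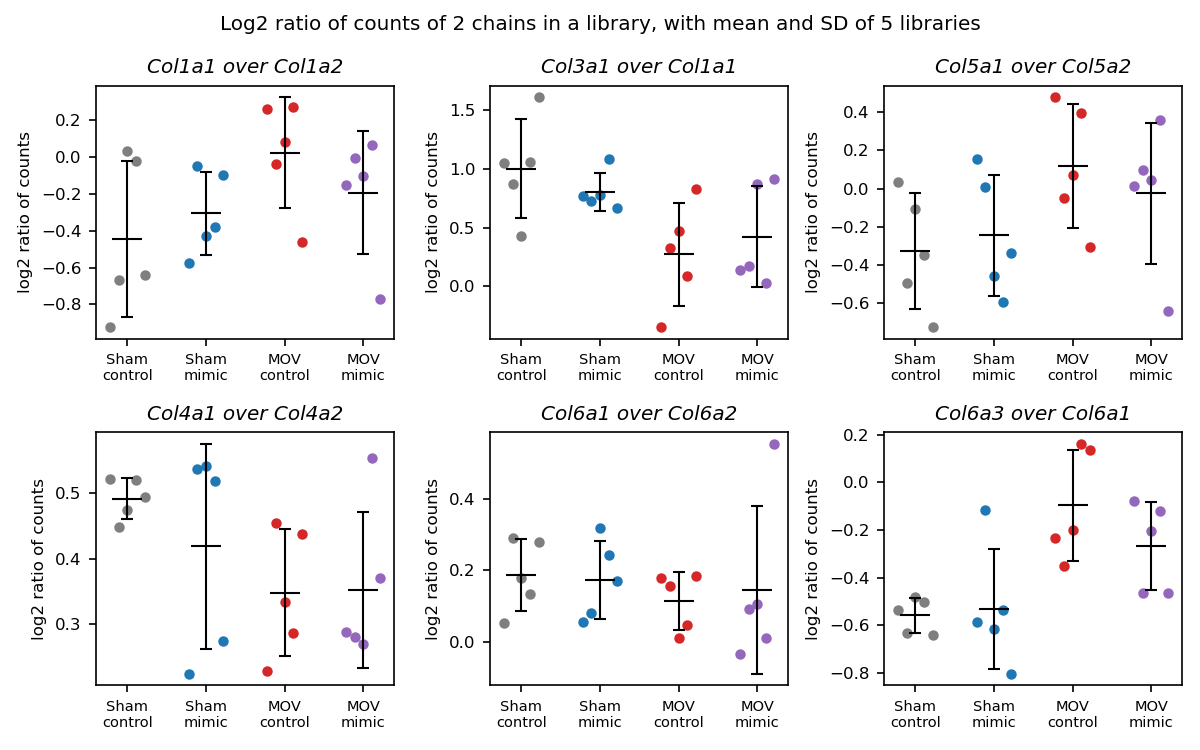
Points are log2 ratios of the counts of 2 chains in each of the 20 libraries, with 0.5 added to each count, and the bars are the mean and SD of the 5 libraries of a group. The MOV control points of Col6a3 over Col6a1 lie between -0.35 and 0.16, all above the sham control points between -0.64 and -0.48, while the groups overlap for Col1a1 over Col1a2 and Col6a1 over Col6a2.

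Among the basement membrane genes 5 of 6 could be tested, with a median log2FC of 0.08 in MOV control against sham control. Col4a1 (ENSMUSG00000031502, chromosome 8, 11198423 to 11312889) and Col4a2 (ENSMUSG00000031503, chromosome 8, 11312805 to 11449287) encode the chains found in nearly all basement membranes. Col4a1 was at 133, 184, 288, 301 and 153 CPM in sham control and 256, 219, 329, 188 and 108 CPM in MOV control. The lowest and the highest of these 10 libraries were both MOV control libraries, and the log2FC was 0.08 (SE 0.30, adjusted p = 0.914), with a sign that turned in 3 of 10 fits without 1 library. Col4a2 was at 92.5, 135, 208, 209 and 109 CPM and 218, 160.1, 261, 154 and 80.0 CPM in the same groups (log2FC 0.24, SE 0.31, but 0.039 without MOV control 3 and 0.42 without MOV control 5). Col4a5, a chain of basement membranes in kidney and muscle, was at 1.88, 3.61, 6.91, 5.75 and 4.08 CPM in sham control and 2.47, 2.59, 4.26, 10.3 and 5.90 CPM in MOV control, where library 4 was highest (log2FC 0.19, SE 0.42). Col4a4, a chain known from the kidney filter, was low throughout, at 1.5, 3.11, 0.691, 2.04 and 2.33 CPM in sham control and 0.742, 0.173, 0.623, 0.964 and 0.729 CPM in MOV control. Only sham control 3 lay within the MOV control range for Col4a4 (log2FC -1.57, SE 0.50, adjusted p = 0.131). DESeq2 called Col4a4 (log2FC -1.59, adjusted p = 0.0419), edgeR did not. The Col4a4 annotation shares 114 bases with that of Col4a3, a chain of the same trimer.

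FACIT genes lay near both ends of the comparison. Col9a1 (ENSMUSG00000026147, chromosome 1, 24177589 to 24252738) encodes a chain of type IX collagen, a FACIT of cartilage fibrils. It was at 13.1, 7.16, 6.38, 5.57 and 7.05 CPM in sham control and 2.37, 2.68, 2.18, 2.89 and 3.13 CPM in MOV control. All MOV control libraries lay below all sham control libraries, with sham control 1 the highest of all, and the means were 7.85 ± 2.98 and 2.65 ± 0.384 CPM (SD, n = 5 each). The edgeR test gave a log2FC of -1.56 (SE 0.27) and missed the threshold with an adjusted p of 0.0551. DESeq2 gave an adjusted p of 2.94e-05, voom 0.0321, edgeR without a filter 0.00893 and edgeR with at least 10 counts 0.0383, each with the same direction. These last 2 fits called 1.37% and 0.734% of all genes they tested. Col9a1 missed the threshold in edgeR with DESeq2 size factors (adjusted p = 0.0534), with library totals (0.0562), with all 20 libraries in 1 fit (0.0728) and with the replicate number as a block (0.114). As each mouse had 1 of the surgeries, this block did not join libraries of 1 mouse. Leaving out 1 library at a time, the log2FC stayed between -1.66 and -1.28, and edgeR called Col9a1 without sham control 3 or without MOV control 5, along with 2.81% and 2.08% of all genes. Of 8 cartilage markers, Snorc had 0 counts in all 20 libraries, Matn1 in 18, Cnmd in 15 and Hapln1 in 9. The 4 markers that could be tested had a median log2FC of 0.60 with 3 above 0, among them Acan, which encodes aggrecan and reached 43.0 CPM in 1 library, with 1.49 (SE 0.87). Sox9, a transcription factor of cartilage, had a log2FC of 1.19 (SE 0.46, adjusted p = 0.191). The mean log2 CPM of the 8 markers was -2.32 to -0.14 in sham control and -1.49 to -0.51 in MOV control, and their part in the Col9a1 values was not tested. The partner chains Col9a2 and Col9a3 were at 1.16 CPM or less in every library of this comparison.

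Col20a1 (ENSMUSG00000016356, chromosome 2, 180983323 to 181017545), another FACIT gene, was at 3.90, 4.17, 3.88, 3.11 and 2.46 CPM in sham control and 4.94, 5.40, 5.40, 8.74 and 6.12 CPM in MOV control. Its groups did not overlap either (log2FC 0.81, SE 0.24, adjusted p = 0.11), and DESeq2 called it with an adjusted p of 0.0309. Col20a1 and Col9a1 were the 2 of 38 tested collagen genes with separate groups, against 4.82% of all genes tested. Among the abundant FACIT genes, which coat type I fibrils in tendon and muscle, Col12a1 (ENSMUSG00000032332, chromosome 9, 79598987 to 79721141) was at 14.9, 65.1, 269, 144 and 84.2 CPM in sham control and 325, 398, 254, 89.5 and 70.8 CPM in MOV control (log2FC 1.01, SE 0.63, adjusted p = 0.424). Col16a1 was at 6.68, 26.3, 119, 68.3 and 42.5 CPM and 131, 127, 98.7, 48.6 and 31.2 CPM, with a log2FC of 0.76 (SE 0.59). Col14a1 was at 11.8, 73.3, 114, 137 and 109 CPM and 92.7, 128, 139, 37.3 and 31.9 CPM, with a log2FC of -0.02 (SE 0.54), a value whose sign depended on the fit. For all 3 genes, sham control 1 was lowest in its group and MOV control 5 in its own. Col19a1, at the upper end of the class with a log2FC of 1.36 (SE 0.64, adjusted p = 0.281), ranged only from 0.180 to 1.06 CPM in sham control and from 0.475 to 2.76 CPM in MOV control. Col22a1, a FACIT of the junction between muscle and tendon, was at 47.1 ± 12.9 CPM in sham control and 36.0 ± 7.43 CPM in MOV control (SD, n = 5 each, log2FC -0.38, SE 0.19).

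**Figure D4:**
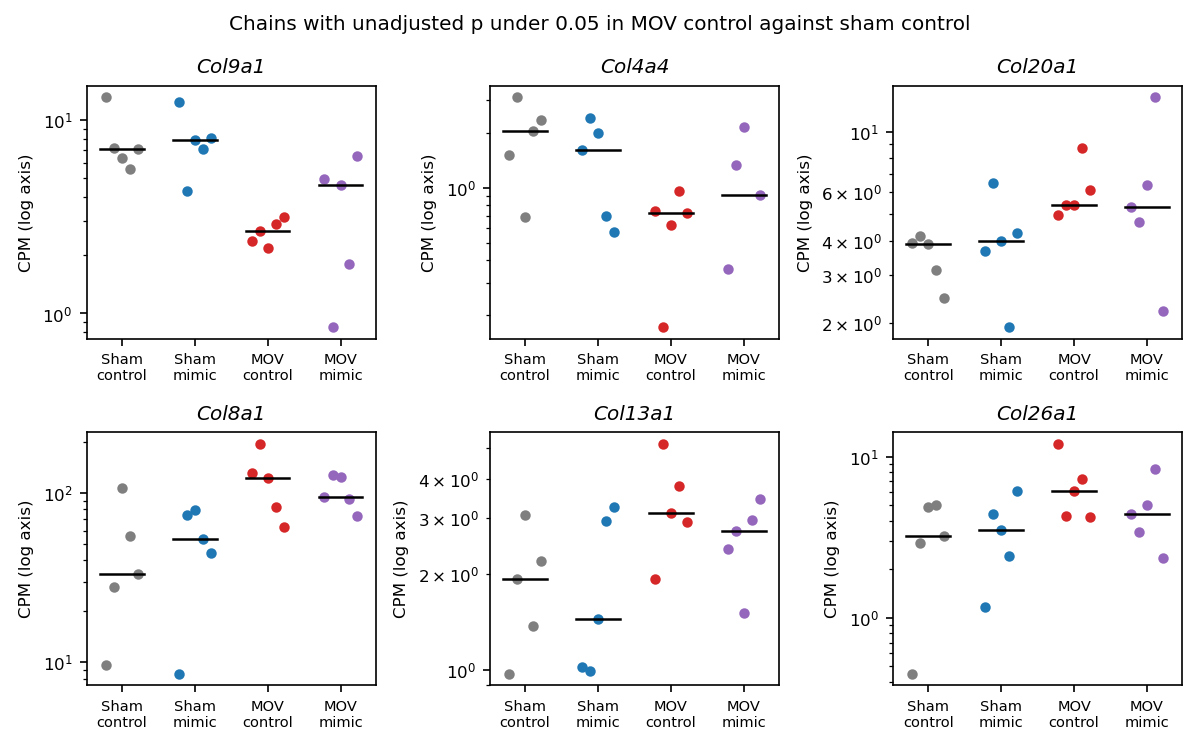
Points are the CPM of 6 of the 7 chains with an unadjusted p under 0.05 in MOV control against sham control, in all 20 libraries, on log axes that differ between panels and with a bar at the median of each group. A value of 0, which the log axis cannot show, is Col4a4 in MOV mimic 4. Col9a1 and Col20a1 separate sham control from MOV control, while Col8a1, Col13a1, Col26a1 and Col4a4 overlap.

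In the remaining class 12 of 14 tested genes had a log2FC above 0, with a median of 0.50. The largest value was that of Col8a1 (ENSMUSG00000068196, chromosome 16, 57624256 to 57754737), which encodes a short network-forming chain known from vessel walls. It was at 9.61, 27.8, 107, 55.9 and 33.3 CPM in sham control and 132, 195, 122, 83.2 and 63.3 CPM in MOV control. Sham control 3 was the library of its group that reached into the MOV control range (log2FC 1.37, SE 0.50, adjusted p = 0.170). Without that library edgeR called Col8a1 with an adjusted p of 0.0410, and in the other 9 fits that left out 1 library it did not, with values of up to 0.350. Relative to the mean of the 10 fibroblast markers in the same library, the log2 level of Col8a1 was -2.39 to -0.03 in sham control and 0.17 to 0.93 in MOV control, and -2.70 to -0.07 in sham mimic against 0.06 to 0.96 in MOV mimic. On this relative scale, computed after the values were seen and given without a test, the MOV libraries lay above the sham libraries in both legs, whereas Col1a1 relative to the same markers overlapped, with 1.51 to 4.82 in sham control and 3.74 to 5.87 in MOV control, and 2.27 to 4.45 in sham mimic and 4.33 to 5.22 in MOV mimic. Col5a1 overlapped in the control legs, but in the mimic legs it was separate as well, with -0.08 to 1.75 in sham mimic and 1.98 to 2.73 in MOV mimic. The fibroblast markers themselves had a median log2FC of -0.40 with 8 of 10 below 0 in the control legs and of -0.22 with 7 of 10 below 0 in the mimic legs, so the reference of this scale was lower with overload for most markers. A lower reference raises the relative level of any steady gene. How many of all genes were separate on this scale was not counted, so separate groups here are not particular to Col8a1 or Col5a1.

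The abundant type VI genes, whose products surround the muscle fibre, had log2FC from 0.13 to 0.50, within the spread between libraries. Col6a1 (ENSMUSG00000001119, chromosome 10, 76708792 to 76726044) was at 71.7, 205, 453, 381 and 259 CPM in sham control and 419, 408, 379, 176 and 88.6 CPM in MOV control (log2FC 0.13, SE 0.48). Col6a2 was at 69.1, 168, 400.1, 347 and 214 CPM and 370.4, 366, 376, 169.8 and 78.0 CPM (log2FC 0.21, SE 0.47). Col6a3 was at 49.5, 132, 325, 268 and 166 CPM and 357, 319.6, 330.0, 196 and 97.5 CPM (log2FC 0.50, SE 0.44). In all 3, sham control 1 and MOV control 5 were the lowest of their groups. Col6a6, whose product can take the place of the Col6a3 chain, had the lowest log2FC of this class, -0.65 (SE 0.33). Col13a1, a transmembrane collagen of the nerve-muscle synapse, was at 1.91 ± 0.809 CPM in sham control and 3.38 ± 1.19 CPM in MOV control (log2FC 0.83, SE 0.36, adjusted p = 0.248). Col26a1 was at 3.31 ± 1.86 and 6.76 ± 3.18 CPM (SD, n = 5 each, log2FC 1.05, SE 0.48, adjusted p = 0.269). Col15a1 and Col18a1, whose products lie in the zone next to basement membranes, had a log2FC of 0.31 (SE 0.26) and 0.45 (SE 0.46), and Col7a1, the anchoring fibril chain of skin, one of 0.51 (SE 0.28).

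The same surgery was compared in the legs with the mimic. In MOV mimic against sham mimic 36 collagen genes were tested and 0 were called by edgeR, as were 0.0% of 14918 genes. DESeq2 and voom called 0 as well, with 1.48% and 0.0134% of all genes. At an unadjusted p under 0.05 there were 4, against 13.4% of all genes tested. They were Col8a1 and Col23a1 with higher, and Col9a1 and Col22a1 with lower values in MOV mimic. The median log2FC was 0.13 with 22 of 36 above 0, against a median of 0.02 and 51.8% above 0 over all genes. In 0 of the 36 were the groups separate, against 2.74% of all genes, and without sham mimic 1 the median of the collagen genes turned to -0.05. Without MOV mimic 2 it was 0.029, and it was 0.20 to 0.28 without any 1 of sham mimic 3, 4 and 5 and MOV mimic 1 and 4. Library totals without TMM moved the median of all genes to 0.22 and that of the collagen genes to 0.31. The collagen median was 0.037 with 19 of 36 above 0 in voom. Among markers of other cells 0 were called, but 8 of 9 of macrophages (median log2FC 0.22), 0 of 10 of muscle fibres (-0.41), 5 of 6 of slow fibres (1.5) and 0 of 4 tested of adipocytes (-1.19) lay above 0, with unadjusted p-values under 0.05 for 3, 2, 4 and 2 of them. Of 7 endothelial markers 1 lay above 0 (median log2FC -0.36), and 5 had an unadjusted p under 0.05, all lower in MOV mimic. The mean log2 CPM of the macrophage markers was 4.27 to 6.11 in sham mimic and 5.22 to 6.28 in MOV mimic, and that of the slow fibre markers 5.03 to 7.10 and 5.74 to 8.37. Their part in the collagen values was not tested.

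Col1a1 was at 272, 1389, 2257, 1849 and 2166 CPM in sham mimic and 1989, 3276, 2212, 1786 and 1673 CPM in MOV mimic (log2FC 0.48, SE 0.42, adjusted p = 0.636). Col1a2 was at 406, 1437, 3038, 2411 and 2319 CPM and 2216, 3288, 2378, 1706 and 2853 CPM, and Col3a1 at 464, 2296, 3858, 3916 and 3447 CPM and 2183, 3683, 4037, 1820.0 and 3149 CPM, in the same groups. Their log2FC were 0.39 (SE 0.39) and 0.10 (SE 0.44), and the groups overlapped in all 3 genes, with sham mimic 1 below every MOV mimic library, and sham mimic 2 as well for Col1a1 and Col1a2. All 11 fibrillar genes were tested, 9 of them with a log2FC above 0 and a median of 0.23, and at the ends were Col5a1 and Col2a1. Col5a1 was at 53.2, 256, 361, 294 and 335 CPM in sham mimic and 325, 534, 442, 317 and 277 CPM in MOV mimic (log2FC 0.56, SE 0.38). Col5a2 was at 47.8, 254, 496, 444 and 423 CPM and 322, 499, 429, 247 and 433 CPM in the same groups (log2FC 0.23, SE 0.44). For Col5a1 and Col5a2 sham mimic 1 was far below the other 9 libraries, which overlapped between the groups. For Col5a3 sham mimic 1 was at 51.6 CPM, above MOV mimic 5 with 47.9 CPM (log2FC -0.18, SE 0.35). Col2a1, the cartilage fibril chain, had a log2FC of -1.30 (SE 0.88).

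The 5 basement membrane genes all had a log2FC below 0 in the mimic legs, with a median of -0.56, and 0 of them had an unadjusted p under 0.05. Col4a1 was at 127, 418, 168, 248 and 248 CPM in sham mimic and 168, 187, 271, 173 and 128 CPM in MOV mimic, where sham mimic 2 was the highest of the 10 (log2FC -0.37, SE 0.29, adjusted p = 0.60). Col4a2 was at 108, 288, 115, 173 and 205 CPM and 138, 154, 225, 118 and 98.8 CPM (log2FC -0.26, SE 0.28). Col4a5 was at 4.39, 7.64, 2.89, 5.44 and 1.91 CPM in sham mimic and 1.95, 2.32, 2.27, 2.96 and 3.44 CPM in MOV mimic (log2FC -0.77, SE 0.39). Endothelial cells make much of the type IV collagen of muscle, and the mean log2 CPM of 7 endothelial markers was 5.19 to 5.61 in sham mimic and 4.74 to 4.95 in MOV mimic, and its part in the type IV values was not tested. In the control legs the endothelial mean was 5.11 to 5.27 in sham control and 4.26 to 5.20 in MOV control, with MOV control 4 and 5 lowest.

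Col9a1 was at 12.4, 4.31, 7.84, 7.06 and 8.03 CPM in sham mimic and 4.97, 0.851, 4.61, 1.80 and 6.49 CPM in MOV mimic. The groups overlapped here, as sham mimic 2 lay below MOV mimic 1, 3 and 5 (log2FC -1.08, SE 0.47, adjusted p = 0.358). Col20a1 was at 3.66, 6.47, 3.99, 1.93 and 4.27 CPM and 5.32, 4.68, 6.38, 13.4 and 2.21 CPM, with MOV mimic 4 highest and MOV mimic 5 among the lowest (log2FC 0.67, SE 0.44, adjusted p = 0.539). Col22a1 was at 41.6, 30.1, 51.4, 69.5 and 86.5 CPM in sham mimic and 45.9, 31.5, 44.9, 15.2 and 25.7 CPM in MOV mimic (log2FC -0.76, SE 0.32, adjusted p = 0.341). Col12a1 was at 15.9, 93.9, 283, 164 and 159 CPM and 132, 214, 182, 158 and 291 CPM, and only sham mimic 1 and 2 lay below all MOV mimic libraries (log2FC 0.47, SE 0.50). Col16a1 was at 6.59, 39.99, 70.0, 61.7 and 65.2 CPM in sham mimic and 69.7, 114, 64.4, 45.1 and 65.4 CPM in MOV mimic (log2FC 0.57, SE 0.45). Col14a1 was at 20.2, 71.0, 98.6, 104 and 80.1 CPM and 50.2, 95.5, 117, 43.0 and 35.6 CPM (log2FC -0.12, SE 0.41). Sham mimic 1 was the lowest of all 10 libraries for both genes, and the other libraries overlapped between the groups.

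Col8a1 was at 8.57, 74.2, 79.8, 53.7 and 44.4 CPM in sham mimic and 94.2, 129, 125, 92.6 and 73.2 CPM in MOV mimic. Sham mimic 2 and 3 reached into the range of MOV mimic, and the means were 52.1 ± 28.3 and 103 ± 23.5 CPM (SD, n = 5 each, log2FC 1.00, SE 0.41, adjusted p = 0.338). Col23a1, a transmembrane collagen, had a log2FC of 0.62 (SE 0.29, adjusted p = 0.373). Among the type VI genes, Col6a1 was at 99.0, 278, 322, 388 and 383 CPM in sham mimic and 249.6, 427, 361, 225 and 299.6 CPM in MOV mimic (log2FC 0.10, SE 0.30). Col6a2 was at 95.3, 263, 258, 328 and 341 CPM and 255, 400.3, 335, 223 and 204 CPM (log2FC 0.16, SE 0.29). Col6a3 was at 65.9, 257, 209.9, 268 and 219.7 CPM and 236, 309.5, 313, 207 and 217 CPM (log2FC 0.35, SE 0.29). In all 3 genes sham mimic 1 lay below every other library, and MOV mimic 2 was the highest or second highest of its group. Col6a5 had the highest value of all collagen genes, 1.59 (SE 1.03), but it rested on MOV mimic 2 with 7.94 CPM, the other 9 libraries lying under 2 CPM, and the lowest log2FC with 1 library left out was 0.05.

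**Figure D5:**
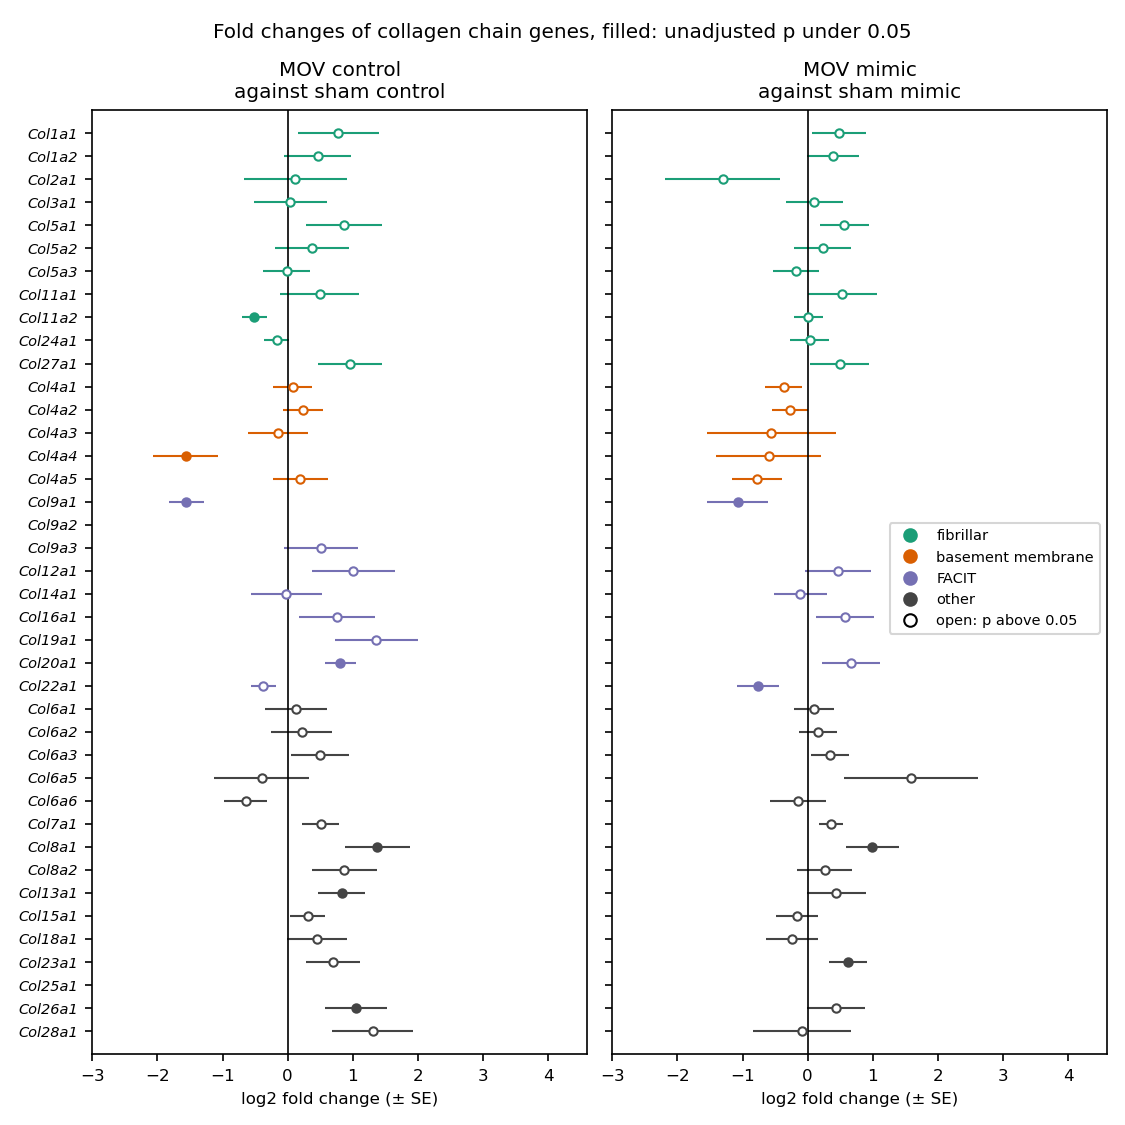
Points are edgeR log2 fold changes of the collagen chain genes in MOV control against sham control and in MOV mimic against sham mimic, with bars of 1 SE, coloured by class and filled where the unadjusted p was under 0.05. Genes without a point did not pass the filter on low counts in that comparison. Col9a1 at -1.56 and Col8a1 at 1.37 are filled in both panels, and the basement membrane genes lie left of 0 in the second.

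Whether the mimic changed the chains in overloaded muscle was then compared. Of 38 collagen genes tested in MOV mimic against MOV control, 0 were called, as were 0.0% of 15220 genes. DESeq2 and voom also called 0, with 0.0197% and 0.0% of all genes, and 2 had an unadjusted p under 0.05, against 4.21% of all genes. The median log2FC was -0.21 with 11 of 38 above 0, whereas over all genes it was -0.01 with 49.3% above 0. The median rested in part on single libraries, as it was -0.070 without MOV control 1, -0.10 with 18 of 38 above 0 without MOV control 2, -0.078 without MOV control 3 and -0.35 without MOV control 5. Of 9 macrophage markers 9 had a log2FC above 0 in this comparison, with a median of 0.50, 2 with an unadjusted p under 0.05 and 0 called, and their mean log2 CPM was 4.20 to 6.09 in MOV control and 5.22 to 6.28 in MOV mimic. Above 0 lay 6 of 6 slow fibre (median log2FC 0.29), 1 of 10 muscle fibre (-0.19) and 0 of 6 tested Schwann cell markers (-0.41). Of these, 0 had an unadjusted p under 0.05. Their part in the collagen values was not tested. Groups were separate in 0 of the 38, against 0.736% of all genes. The MOV mimic libraries lay within the range of MOV control for Col1a1, Col5a1, Col12a1 and Col8a1, whose log2FC were -0.28, -0.30, -0.23 and -0.22 (SE 0.38, 0.36, 0.42 and 0.27). Col1a2 and Col3a1 had log2FC of -0.01 and -0.03 (SE 0.34 and 0.35). The 2 genes with an unadjusted p under 0.05 were Col11a2, a chain of type XI collagen, and Col4a5. Col11a2 was at 18.5, 18.7, 19.6, 12.3 and 13.9 CPM in MOV control and 25.5, 24.3, 19.3, 22.1 and 20.7 CPM in MOV mimic (log2FC 0.43, SE 0.18, adjusted p = 0.999). The MOV control libraries 4 and 5 were the lowest for Col11a2 and the highest for Col4a5, which had means of 5.10 ± 3.22 and 2.59 ± 0.602 CPM (SD, n = 5 each, log2FC -0.96, SE 0.42, adjusted p = 0.999).

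The collagen genes that carry a match for the miR-1 seed were read in the same comparison. Col15a1 had a log2FC of -0.28 (SE 0.26), Col4a3 of -0.20 (SE 1.02), Col6a1 of 0.08 (SE 0.36) and Col6a3 of -0.03 (SE 0.30), while Col4a6 did not pass the filter on low counts. In sham mimic against sham control the log2FC of the same genes were 0.18, 0.20, 0.10 and 0.11 (SE 0.34, 0.45, 0.44 and 0.45). By qPCR the paper reports that the mimic did not raise miR-1 in sham legs and lessened its fall with overload. None of them had an unadjusted p under 0.05, and the value largest relative to its error was that of Col15a1 in overloaded muscle.

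The mimic was also compared without overload. In sham mimic against sham control 36 collagen genes were tested, 0 were called and 0 had an unadjusted p under 0.05, against 0.0% and 1.72% of 14746 genes, and DESeq2 and voom called 0 too. The median log2FC was 0.07 with 23 of 36 above 0, against 50.2% of all genes. It turned to -0.14 with 14 of 38 above 0 without sham control 1, and to -0.016 and -0.0015 without sham mimic 5 and 4. It was 0.017 and 0.014 without sham control 2 or sham mimic 2, and 0.32, 0.20 and 0.29 without sham control 3, sham control 4 or sham mimic 1. It was 0.19 in voom and 0.039 with library totals. Groups were separate in 0 of the 36, against 0.366%. The values ran from -0.43 for Col6a5 (SE 0.75) to 0.83 for Col2a1 (SE 0.79), and these were 0.0286 for Col6a5 without sham control 5 and 0.050 for Col2a1 without sham mimic 4. Col1a1, Col1a2 and Col3a1 had log2FC of 0.01, 0.05 and -0.10 (SE 0.66, 0.56 and 0.64). Each group held its library 1 far below the rest, and an effect of the mimic smaller than these errors was not detectable.

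The interaction of surgery and virus asks whether overload acted differently in the legs with the mimic. Of 40 collagen genes tested in all 20 libraries, 0 were called and 0 had an unadjusted p under 0.05, against 0.0% and 2.68% of 16166 genes. DESeq2 and voom called 0 too, with 0.00619% and 0.0% of all genes. The median was -0.23, with 9 of 40 above 0, against 48.7% of all genes, and without library 1 of both sham groups it was -0.22 with 0 called. In voom it was -0.42 with 8 of 40 above 0. Leaving out 1 library moved this median to -0.061 with 19 of 40 above 0 without sham control 1, and to -0.071 with 17 of 40 above 0 without MOV control 1. It was -0.13 to -0.15 without sham control 2 or sham mimic 3 or 5, and -0.50, -0.43 and -0.37 without sham control 3, sham mimic 1 and MOV control 5. The values ran from -1.39 for Col2a1 (SE 1.27) to 2.01 for Col6a5 (SE 1.35), and these were -0.63 for Col2a1 without sham mimic 4 and 0.47 for Col6a5 without MOV mimic 2. The 9 macrophage markers all had an interaction above 0, with a median of 0.75 and 0 called, and their part was not tested. For Col9a1 the interaction was 0.48 (SE 0.56), for Col8a1 -0.37 (SE 0.70) and for Col1a1 -0.29 (SE 0.81). For Col4a1 and Col4a2 it was -0.44 and -0.49 (SE 0.44 and 0.45), and neither passed the test of a difference between control and mimic legs.

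Collagen chains need enzymes and partners, and these were counted from lists of genes by role, of which edgeR called 0 in any of the 5 comparisons. In MOV control against sham control the numbers with an unadjusted p under 0.05 were 1 of 18, 1 of 12, 3 of 16, 1 of 11 and 2 of 9 tested in the 5 lists below, in their order, against 18.2% of all genes tested. Of 18 genes of collagen folding and modification 18 were tested in MOV control against sham control, with a median log2FC of 0.29 and 14 above 0. The list holds Serpinh1, the collagen chaperone, with a log2FC of 0.51 (SE 0.35), Plod2, which hydroxylates lysines for crosslinks, with 1.06 (SE 0.51), and P4ha3, a prolyl hydroxylase subunit, with 1.08 (SE 0.60). P4ha2, another such subunit, was the gene of this list with an unadjusted p under 0.05, at -0.40 (SE 0.15, adjusted p = 0.186). Of 13 genes of propeptide processing and crosslinking 12 were tested, with a median of 0.20 and 9 above 0. Lox, which crosslinks fibrils, was at 0.69 (SE 0.51), and Pcolce2, an enhancer of propeptide removal, at -2.19 (SE 0.58, adjusted p = 0.0838). Of 16 genes of fibril-associated proteins 16 were tested, with a median of 0.30 and 9 above 0. Dcn, which encodes decorin, was at -0.84 (SE 0.30, adjusted p = 0.170), and Tnxb, which encodes tenascin X, at -1.24 (SE 0.25, adjusted p = 0.0554). The median over 11 basement membrane partners was 0.01 with 7 above 0, and over 9 tested of 10 collagen receptors it was 0.31 with 6 above 0, among them Ddr1, a collagen-binding kinase, at 0.51 (SE 0.18, adjusted p = 0.150). Beside these stands the median of 0.04 over all genes tested. DESeq2 called 2 genes of these lists, Pcolce2 and Tnxb, both lower in MOV control, against 6.1% of all genes, and they were named after their values were seen. In MOV mimic against sham mimic the medians of the 5 lists, in the same order, were 0.15, 0.09, 0.07, -0.07 and 0.35, against 0.02 over all genes.

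Promoters of the collagen genes were read from RefSeq (GRCm38.p6) as the 250 bases before the annotated start, which were at hand for 35 of the 44. The letters GGGCGG of a GC box, on either strand, lay in 21 of the 35, against 32.9% of 27025 mouse promoters. CCAAT lay in 12 of 35, against 34.5%, and TATAAA in 5 of 35, against 13.0%, on either strand. The promoters of Col1a2, Col3a1 and Col8a1 are shown, as 3 genes that were lowest in library 1 of both sham groups and differ in these motifs, with the matched letters in capitals.
Col1a2, chr6:4505368-4505617, + strand: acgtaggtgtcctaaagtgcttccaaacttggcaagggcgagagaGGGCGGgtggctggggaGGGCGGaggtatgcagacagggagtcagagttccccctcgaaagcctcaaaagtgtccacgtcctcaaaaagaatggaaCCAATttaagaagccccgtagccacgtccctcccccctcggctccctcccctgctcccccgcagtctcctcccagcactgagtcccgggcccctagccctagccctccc
Col3a1, chr1:45311288-45311537, + strand: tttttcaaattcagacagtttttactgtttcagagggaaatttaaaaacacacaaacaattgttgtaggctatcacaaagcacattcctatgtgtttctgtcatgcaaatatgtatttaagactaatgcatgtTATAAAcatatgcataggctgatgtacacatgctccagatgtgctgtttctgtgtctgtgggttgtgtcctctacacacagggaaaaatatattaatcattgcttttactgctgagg
Col8a1, chr16:57754738-57754987, - strand: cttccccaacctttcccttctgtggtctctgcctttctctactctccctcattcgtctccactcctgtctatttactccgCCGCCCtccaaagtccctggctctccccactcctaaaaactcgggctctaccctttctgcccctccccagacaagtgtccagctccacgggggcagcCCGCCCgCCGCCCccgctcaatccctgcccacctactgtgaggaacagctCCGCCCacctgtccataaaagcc
The letters CCGCCC are a GC box read on the other strand. Counted back from the start, the GC boxes of Col1a2 lay at -205 and -188 with CCAAT at -109, and those of Col8a1 at -170, -73, -66 and -23. Col3a1 held no GC box and no CCAAT in this window, and TATAAA at -117. No match of letters here shows that a factor binds.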

How the data were processed

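Counts per Ensembl gene, not normalized, were deposited for 20 plantaris libraries in 1 table for the control virus and 1 for the mimic. Per the methods and processing notes, the authors checked reads with FastQC 0.11.9, trimmed them with Trim Galore 0.6.10 running cutadapt 4.4, aligned them to GRCm38 with HISAT2 2.0.5 and obtained the counts with featureCounts 1.5.0-p3. The annotation release and the strand setting are not given in the sources used here, so reads of overlapping genes on opposite strands may not have been separated.

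Gene symbols were matched to RefSeq for 32640 of 54532 genes. Each pair of groups was fitted on its 10 libraries, and the interaction on all 20, with edgeR 4.0.16 (quasi-likelihood test, TMM, filterByExpr on low counts, two-sided) in R 4.3.3. The p-values were adjusted by Benjamini-Hochberg over all genes tested, with a threshold of 0.05. CPM values are on the TMM scale. The SE of an edgeR log2FC is its absolute value divided by the square root of the F statistic of the test. Shares and ratios were compared with exact permutation tests over libraries, with p-values adjusted in scipy 1.17.1, and 0.5 was added to counts in the log2 ratios. Figures were drawn with matplotlib 3.10.9.

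Alternatives were DESeq2 1.42.0, limma voom 3.58.1 with quality weights, other scalings and filters, all 20 libraries in 1 fit, the replicate number as a block, and leaving out each library. The fits were run before use on simulated counts with 1 spread for all genes and no outlying libraries, unlike the collagen genes here. In them edgeR recovered 39% of changes of 1 log2 unit in MOV control against sham control and 7% in the interaction. For 2 log2 units it recovered 96% and 78%. Counts per library ran from 12036360 to 23056525, and the 40 pairs of libraries within groups differed by more than sampling noise, with a chi-square per gene of 13.9 to 168.

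The collagen genes, their classes and the lists were chosen with earlier results of these data known. Values in every library are given for the 3 most abundant genes of each class and for both genes of each ratio, with values for those at the ends of a class. Col13a1, Col20a1, Col22a1, Col23a1 and Col26a1, and the genes named from the partner lists, were chosen after their values were seen. The fits without library 1 of both sham groups and without MOV control 4 and 5 were added after seeing the data. The sequence of miR-1 itself, and promoters of 9 of the 44 genes, are not used here.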

Additional observations from a re-analysis of the deposited data

Results flagged for a closer look

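In 132 groups of 5 values (26 genes in CPM and 7 measures, each in 4 groups), 5 held a library far from the other 4 by Dixon's test at the 95% level, and chance alone gives about 1 in 20 such groups. The log2 ratio of Col1a1 over Col1a2 was -0.77 in MOV mimic 5, the lowest of its group, whereas the other libraries lay between -0.16 and 0.07. The log2 ratio of Col6a1 over Col6a2 was 0.55 in the same library, the highest of its group, with the others between -0.03 and 0.11. The log2 ratio of Col3a1 over Col1a1 was 1.08 in sham mimic 4, the highest of its group, with the others at 0.67 to 0.77. Col6a3 was at 65.9 CPM in sham mimic 1, with 209.9 CPM as the next lowest value of its group. Col9a1 was at 13.1 CPM in sham control 1, with 7.16 CPM as the next highest value, and without this library its log2FC in MOV control against sham control was -1.28, with an edgeR adjusted p of 0.0935.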

How the results depend on the processing

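With edgeR 0 collagen genes were called in MOV control against sham control, but 3 with DESeq2 and 1 each with voom, without a filter, with at least 10 counts and with DESeq2 and the replicate block, and 0 to 2 when 1 library was left out (2 without sham control 3, Col9a1 and Col8a1, and 1 without MOV control 5, Col9a1). Over all genes tested these fits called 388 of 28224 without a filter, 163 of 22203 with at least 10 counts, 722 of 14974 with DESeq2 and the block, 426 of 15162 without sham control 3 and 318 of 15307 without MOV control 5. DESeq2 called 2 genes of the 5 partner lists there, against 6.1% of all genes. In the other comparisons the count was 0 under the alternatives run, except for 1 gene, Col8a1 (log2FC 1.22, adjusted p = 0.0415), with DESeq2 and the replicate block in MOV mimic against sham mimic, against 0.778% of all genes. Each mouse had 1 of the surgeries, so equal numbers across surgeries cannot mark 1 mouse, and 0 of 5 libraries correlated best with their own number there (-0.44 to 0.24 in the control legs, -0.31 to -0.016 in the mimic legs). Each mouse received both viruses, but the labels do not tie the replicate numbers to mice. The deviations of equal numbers correlated between 0.07 and 0.46 in the MOV legs, with 4 of 5 over 0.1 and all 5 libraries best with their own number, a hint from the data that numbers may pair legs. In the sham legs they correlated between -0.00012 and 0.83, and 2 of 5 were best with their own. As not every pair was over 0.1, the block stayed an alternative. It moved the DESeq2 calls over all genes in MOV mimic against MOV control from 3 to 127, and the median log2FC of the collagen genes there from -0.21 to -0.12 in both tools. The block moved that median from 0.13 to 0.28 in MOV mimic against sham mimic (both tools) and from 0.07 to 0.15 in sham mimic against sham control (both tools). With the replicate block edgeR called 0 collagen genes in all 5 comparisons. The log2FC of Col14a1 in MOV control against sham control, -0.02, became 0.12 with voom, 0.13 with library totals, 0.035 with the block in edgeR and 0.026 with it in DESeq2. With voom Col3a1 turned to -0.022 in MOV mimic against sham mimic and Col6a1 to -0.041 in MOV mimic against MOV control, where Col6a3 became 0.10 with the block in both tools. The collagen share in sham mimic less sham control, -0.0153 percentage points, became 0.00510 without mitochondrial genes and 0.00571 with TMM library sizes.

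Leaving out 1 library turned the log2FC or moved it by over 1.5 times for 29 of 38 collagen genes in MOV control against sham control, 32 of 36 in MOV mimic against sham mimic, 36 of 38 in MOV mimic against MOV control, 36 of 36 in sham mimic against sham control and 39 of 40 in the interaction. With 1 library left out, that share difference ran from -0.201 to 0.156 and that of MOV mimic less MOV control from -0.310 to 0.0459, while that of MOV control less sham control (0.375) ran from 0.189 to 0.588 and that of MOV mimic less sham mimic (0.294) from 0.123 to 0.373. In MOV control against sham control, the log2 differences ran for Col14a1 from -0.30 to 0.19, Col3a1 from -0.25 to 0.29, Col4a1 from -0.12 to 0.25, Col6a1 from -0.11 to 0.39, Col6a2 from -0.021 to 0.48, Col8a1 from 1.11 to 1.94, Col9a1 from -1.66 to -1.28, Col1a1 over Col1a2 from 0.35 to 0.59, Col3a1 over Col1a1 from -0.87 to -0.58 and Col5a1 over Col5a2 from 0.35 to 0.55. In MOV mimic against sham mimic, the log2 differences ran for Col3a1 from -0.17 to 0.26, Col5a2 from -0.053 to 0.41, Col6a1 over Col6a2 from -0.13 to 0.018 and Col6a3 over Col6a1 from 0.20 to 0.37. In MOV mimic against MOV control, the log2 differences ran for Col4a3 from -1.25 to 0.12, Col6a1 from -0.16 to 0.24, Col6a3 from -0.24 to 0.12, Col8a1 from -0.39 to 0.033, Col3a1 over Col1a1 from -0.0054 to 0.29, Col4a1 over Col4a2 from -0.046 to 0.031, Col5a1 over Col5a2 from -0.25 to 0.010 and Col6a1 over Col6a2 from -0.071 to 0.075. In sham mimic against sham control, the log2 differences ran for Col6a5 from -1.01 to 0.029, Col5a1 over Col5a2 from -0.017 to 0.17, Col6a1 over Col6a2 from -0.049 to 0.016 and Col6a3 over Col6a1 from -0.076 to 0.096. The cause of these turns was not tested. The main limits are 5 libraries a group, collagen levels that differ several-fold between libraries of 1 group, and the larger errors of the interaction. Counting intervals would cover counting error only.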
